A study of Mus musculus with 8 samples.

Results

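IL-1 cytokines and the genes of the inflammasome were followed in CD4+ T cells that lacked the kinase IRAK1 and in wild-type cells from the same mice. The set holds 9 genes. They are Il1b, Il1a, Il1rn and Il18, which encode cytokines and an antagonist, Nlrp3, Pycard, Casp1 and Casp4, which encode a sensor, an adaptor and inflammatory caspases, and Gsdmd, which encodes a pore-forming protein. The probe set of each gene was chosen by its symbol, as the one with that single symbol and the highest mean over all 8 arrays, and all 9 were found among 22180 genes with such a probe set. Because that mean chose the probe set, the levels below are a description, and because Il1b was known to differ when the genes were put together, its call is not independent support for the group. Gsdmd alone had a second probe set.

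Gene expression was measured on 8 Affymetrix arrays, 4 of Irak1-/- and 4 of wt cells. The mice were of the C57BL/6 strain, and the sources used here give no age. CD4+CD62L+ T cells of both genotypes, Irak1-/- with CD45.2 and wt with CD45.1, were injected intraperitoneally in equal numbers into Rag1-/- mice, a model of T cell transfer colitis. After 14 days CD3+CD4+ cells were sorted from the mesenteric lymph nodes by gates for CD45.1- CD45.2+ cells (Irak1-/-) and CD45.1+ CD45.2- cells (wt), to a stated purity above 99.5%. Each of the 4 replicates pooled 2 recipients and gave 1 array per genotype, so both arrays of a batch share their recipients and form a pair. Every Irak1-/- array is also CD45.2 and every wt array CD45.1, so genotype and CD45 allele cannot be told apart. The targeted gene does not check these labels. Irak1 read 6.93, 6.83, 6.997 and 6.61 in Irak1-/- replicates 1 to 4, against 7.16, 6.89, 6.64 and 6.39 in wt replicates 1 to 4, so the groups overlapped, with a difference of 0.07 (limma adjusted p = 0.953). Whether its probes lie outside the deleted part is not known here, and every direction below therefore rests on the genotype labels alone. Rag1-/- recipients have no T or B cells of their own but keep their myeloid cells. The CD45 allele of the recipients is not given here. Recipient cells with CD45.2 and no CD45.1 would fall in the CD45 gate for Irak1-/- cells alone. Whether any recipient cells entered the sorted samples was not tested. In sorted bulk samples, fewer cells of a type and less RNA per cell cannot be told apart either.

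IL-1 beta, the product of Il1b, is made as an inactive precursor, mainly by monocytes, macrophages, dendritic cells and neutrophils. An inflammasome forms when a sensor such as NLRP3 recruits the adaptor ASC, encoded by Pycard, and caspase-1, which then cuts the precursors of IL-1 beta and IL-18 and opens gasdermin D pores in the membrane. IRAK1 acts on the receiving side, downstream of the IL-1 receptor, the IL-18 receptor and most Toll-like receptors, and these signals in turn induce Il1b and Nlrp3 through NF-kappaB.

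Promoter sequences are shown for Il1b, the gene that differed between the genotypes, for Il1a, its neighbour on the chromosome, which was under the level filter and not tested, and for Pycard, which was well expressed in both genotypes. They come from RefSeq (GRCm38.p6), run from 250 bases before to 50 bases after a transcript start, and all lie on the minus strand, at chr2:129371090-129371389 for Il1b, chr2:129309923-129310222 for Il1a and chr7:127993818-127994117 for Pycard. Capitals mark the motifs TATAAA (printed strand only) and, on both strands, GAGGAA (the core bound by PU.1), TTGCNNAA (C/EBP), TGANTCA (AP-1) and the NF-kappaB consensus.
Il1b: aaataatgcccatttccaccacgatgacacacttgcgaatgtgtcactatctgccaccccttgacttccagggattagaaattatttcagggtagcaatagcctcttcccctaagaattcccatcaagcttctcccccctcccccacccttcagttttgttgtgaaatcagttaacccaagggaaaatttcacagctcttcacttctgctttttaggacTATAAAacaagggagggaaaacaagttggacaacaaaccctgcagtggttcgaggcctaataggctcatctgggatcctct
Il1a: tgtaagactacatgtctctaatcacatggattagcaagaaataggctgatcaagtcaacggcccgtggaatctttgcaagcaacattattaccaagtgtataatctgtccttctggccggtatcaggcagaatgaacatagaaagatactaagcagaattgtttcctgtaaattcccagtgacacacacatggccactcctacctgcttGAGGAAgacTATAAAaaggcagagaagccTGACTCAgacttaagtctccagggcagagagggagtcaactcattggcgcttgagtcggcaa
Pycard: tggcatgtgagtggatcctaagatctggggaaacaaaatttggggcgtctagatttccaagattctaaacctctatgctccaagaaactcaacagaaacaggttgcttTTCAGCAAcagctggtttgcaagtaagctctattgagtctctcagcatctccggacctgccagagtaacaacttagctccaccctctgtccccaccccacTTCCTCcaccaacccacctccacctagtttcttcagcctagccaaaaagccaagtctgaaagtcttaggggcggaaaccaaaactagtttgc
Il1b and Il1a each held TATAAA, beginning at -31 in Il1b and at -32 in Il1a from the start, a word found in 8.32% of the 32851 promoters of this length. Il1a also held GAGGAA at -41 (28.3% of promoters) and TGACTCA, an AP-1 match, at -12 (7.81%). Pycard held the reverse complement of GAGGAA at -42 and a C/EBP match at -142 (10.8%). The marked motifs did not overlap. Of the 8 genes with a promoter entry, Casp4 and Nlrp3 held the NF-kappaB consensus in at least 1 of their promoters (8.46% of all promoters), and no match to it lay in the window of Il1b. Gsdmd had no entry.

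Among the cytokines, Il1b was higher in every Irak1-/- array than in any wt array. Its probe set, 17391565, read 5.45, 5.08, 5.68 and 5.79 on the log2 scale in Irak1-/- replicates 1 to 4, against 4.36, 3.85, 3.96 and 4.04 in wt replicates 1 to 4. The groups did not overlap, and the gap between the lowest Irak1-/- and the highest wt array was 0.72. Each array of a pair differed in the same direction, by 1.09, 1.23, 1.73 and 1.75 in pairs 1 to 4. The mean was 5.50 ± 0.31 in Irak1-/- and 4.05 ± 0.22 in wt arrays (SD, n = 4 each), and the fitted difference was 1.45 (SE 0.14, limma adjusted p = 0.00672 over 13308 genes), or 2.73-fold with a 95% confidence interval of 2.18 to 3.42. The 4 Irak1-/- values lay above the medians of their arrays, while 3 of 4 wt values lay under theirs. Without a measure of array background, the true size of this fold is uncertain, since the wt level is low. The call ended without pair 2 (adjusted p = 0.0519, difference 1.52) and without pair 4 (adjusted p = 0.0513, difference 1.35).

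Il1b was the one gene of the 9 that passed. A level filter, a mean of at least 3.90, admitted 6 of them to the test, and Il1a, Il18 and Nlrp3 were left out by it. Il1b was the 1 that rose among those 6, and 0 fell. Over all tested genes 0.0751% passed at the adjusted p of 0.05, 0.0676% higher and 0.00751% lower in Irak1-/- arrays. The median difference of the 6 was 0.0084, beside -0.029 over all tested genes. Il18, with a mean of 3.81 over the 8 arrays, lay just under the filter, and Il1rn, with 4.43, was the lowest gene inside it. Levels in both genotypes overlapped for the other 8 genes, while over all genes with a probe set 1.19% were higher and 1.7% lower in Irak1-/- arrays without overlap.

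**Figure D1:**
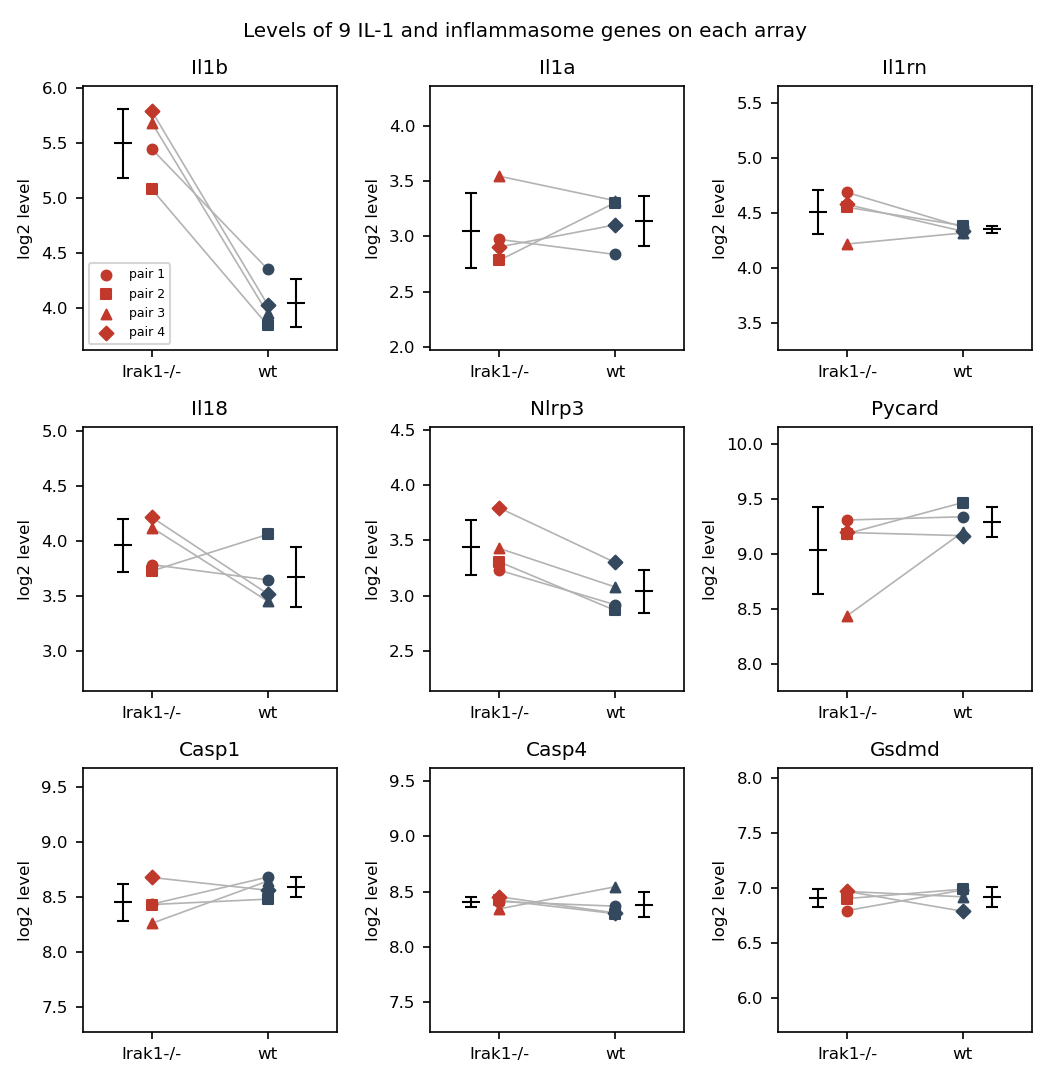
Log2 level of each of the 9 genes on each array, Irak1-/- on the left and wt on the right of each panel, with grey lines joining the arrays of a pair, symbols for the pair, and black bars for the mean ± SD of 4 arrays. Each panel spans the same range on the log2 scale. Il1b separates the genotypes by 0.72 between the nearest arrays, Nlrp3 is higher in Irak1-/- along all 4 lines, with overlap between groups, and Pycard has 1 low Irak1-/- array at 8.44.

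Il1a encodes IL-1 alpha, which signals through the same receptor as IL-1 beta and needs no cleavage by caspase-1 to do so. It read 2.97, 2.78, 3.55 and 2.90 in Irak1-/- replicates 1 to 4, against 2.84, 3.31, 3.32 and 3.10 in wt replicates 1 to 4. All 8 values lay under the medians of their arrays, and the pairs split, with 2 of 4 higher. The mean difference was -0.09 ± 0.34 (SD over 4 pairs), smaller than the spread between pairs.

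Il1rn encodes the IL-1 receptor antagonist, which occupies the receptor without signalling. It read 4.69, 4.55, 4.22 and 4.58 in Irak1-/- replicates 1 to 4, against 4.37, 4.39, 4.32 and 4.33 in wt replicates 1 to 4. The wt arrays lay close together (SD 0.03), and the Irak1-/- arrays lay on both sides of them, with replicate 3 below and the other 3 above. The difference was 0.16 (95% confidence interval -0.11 to 0.42, adjusted p = 0.890).

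Il18 encodes IL-18, which with IL-12 drives interferon-gamma production by Th1 and NK cells. It read 3.78, 3.73, 4.12 and 4.21 in Irak1-/- replicates 1 to 4, against 3.64, 4.06, 3.45 and 3.52 in wt replicates 1 to 4. All 8 values were under their array medians. Pair differences were 0.14, -0.33, 0.67 and 0.69, with a mean of 0.29 ± 0.49, so the spread between pairs exceeded the mean.

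The sensor gene Nlrp3 had small differences in 1 direction. It read 3.23, 3.31, 3.43 and 3.79 in Irak1-/- replicates 1 to 4, against 2.92, 2.87, 3.08 and 3.30 in wt replicates 1 to 4. Only the highest wt array reached into the Irak1-/- range, and within pairs the differences were 0.31, 0.44, 0.35 and 0.49. Their mean was 0.40 ± 0.08 (SD, n = 4 pairs). All 8 values lay under their array medians and the gene was below the level filter. Tested without that filter, over 22180 genes, its adjusted p was 0.672, so it did not pass. Of the 9 genes, Il1b and Nlrp3 were higher in all 4 pairs, as were 5.5% of all genes with a probe set, and 0 of the 9 were lower in all 4, against 7.93% of all genes.

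**Figure D2:**
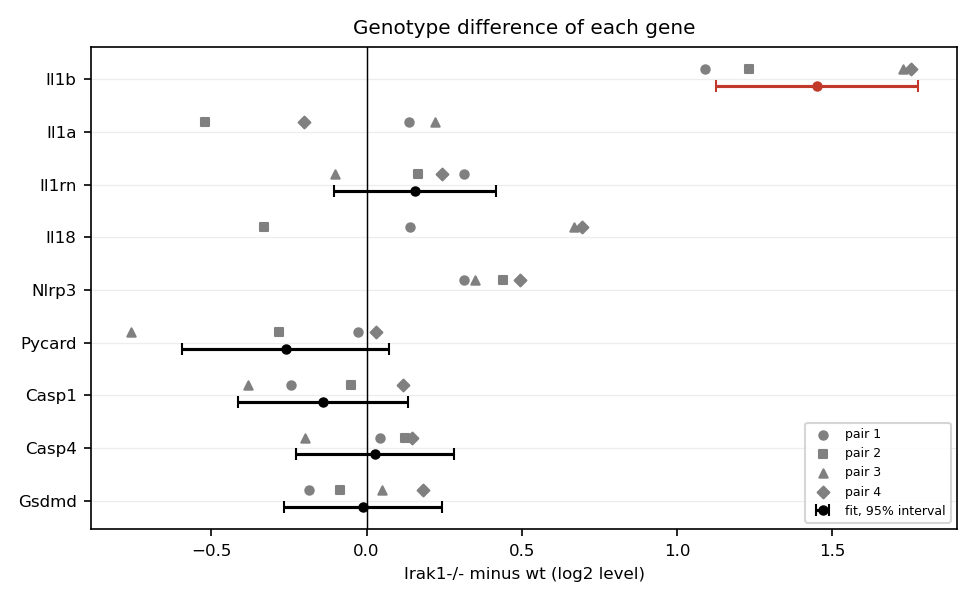
Difference in log2 level, Irak1-/- minus wt, for each gene. Grey symbols are the 4 pairs, and dots with bars are the fitted difference and its 95% confidence interval for the 6 genes tested, red where the adjusted p was under 0.05. The interval of Il1b runs from 1.13 to 1.77, and the other 5 intervals include 0.

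The adaptor and the caspases had levels far above the array medians in both genotypes, and none passed. Pycard, which encodes ASC, read 9.31, 9.18, 8.44 and 9.20 in Irak1-/- replicates 1 to 4, against 9.34, 9.47, 9.20 and 9.17 in wt replicates 1 to 4. Irak1-/- replicate 3 was the lowest of the 8, and the other 3 Irak1-/- arrays lay within the wt range. The difference was -0.26 (95% confidence interval -0.59 to 0.07, adjusted p = 0.821), and without pair 3 it was -0.09. That Irak1-/- array stood apart across genes too. It correlated with the other 7 arrays at 0.957 to 0.970 over the tested genes, while those correlated among themselves at 0.976 to 0.986.

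Casp1 encodes caspase-1, the protease that activates IL-1 beta. It read 8.44, 8.43, 8.26 and 8.68 in Irak1-/- replicates 1 to 4, against 8.68, 8.48, 8.64 and 8.56 in wt replicates 1 to 4. The lowest and 1 of the highest values both came from Irak1-/- arrays. Its difference was -0.14 (95% confidence interval -0.41 to 0.13, adjusted p = 0.908), and without pair 3 it was -0.06.

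Casp4, the neighbouring gene, encodes the mouse protein often called caspase-11, which binds bacterial lipopolysaccharide inside the cell and cuts gasdermin D. It read 8.41, 8.42, 8.34 and 8.45 in Irak1-/- replicates 1 to 4, against 8.37, 8.30, 8.54 and 8.31 in wt replicates 1 to 4. The Irak1-/- arrays all lay inside the wt range. Its difference was 0.03 (95% confidence interval -0.23 to 0.28, adjusted p = 0.980). As a fold, that interval ran from 0.854 to 1.22.

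Gsdmd encodes gasdermin D, the protein whose cut form makes the pores of pyroptosis. The probe set with the higher mean, 17312280, read 6.79, 6.90, 6.97 and 6.97 in Irak1-/- replicates 1 to 4, against 6.98, 6.99, 6.92 and 6.79 in wt replicates 1 to 4. Both groups covered nearly the same range, with a difference of -0.01 (95% confidence interval -0.27 to 0.24, adjusted p = 0.992). The other probe set, 17318176, averaged 5.46 ± 0.30 in Irak1-/- and 5.46 ± 0.12 in wt arrays, and its pairs were split as well.

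Across the 8 arrays, Clec4a3, a lectin receptor of myeloid cells, and Lyz2, the lysozyme of macrophages and neutrophils, had the levels most like those of Il1b, with Pearson correlations of 0.973 and 0.972. Next came Cfl2, a regulator of actin filaments (0.967), C1qb, a subunit of complement C1q made by macrophages (0.967), and Ctss, the lysosomal protease cathepsin S of antigen-presenting cells (0.965). These are descriptions over arrays of both genotypes, which carry the difference between genotypes and the shared recipients of each pair. Pycard, whose levels also spanned more than 1 on the log2 scale, was most like Foxk2 (0.995), Lin54 (0.994), Samm50 (0.992), 2810408B13Rik (0.987) and Polr2j (0.987), and the low Irak1-/- replicate 3 weighs heavily in those values.

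Some markers of myeloid cells were higher in the same arrays as Il1b. Of 17 monocyte and macrophage markers on the arrays, 15 passed the level filter, 3 rose and 0 fell, and the median difference of the 15 was 0.49. All 15 differences were positive. Lyz2, Csf1r, Cybb and Mpeg1 had wt means under the filter (3.84, 3.81, 3.44 and 3.41). They passed it through their Irak1-/- arrays, so each entered that count only because of its positive difference. Cd14 and Ms4a7, left out by the filter, had differences of 0.43 and 0.21. Lyz2 rose by 4.16 (adjusted p = 0.00161), and Tyrobp and Fcer1g, adaptors of activating receptors, rose by 2.47 (adjusted p = 0.00176) and 1.89 (adjusted p = 0.00176). Cybb, the NADPH oxidase subunit of phagocytes, had a difference of 1.52 and missed the threshold (adjusted p = 0.0635). Linear levels summed over the 17 markers were 1250 to 1949 in Irak1-/- and 737 to 851 in wt arrays. No value on these arrays is 0, and the defining markers Cd14 and Ms4a7 lay under the level filter.

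In pairs 1 to 4 the mean of the 17 markers differed by 0.56, 0.84, 1.15 and 1.04, beside Il1b differences of 1.09, 1.23, 1.73 and 1.75. Both were smallest in pair 1 and second smallest in pair 2, while the remaining pairs came in the opposite order. Among the macrophage markers that did not pass, Mpeg1 had a difference of 1.11, Csf1r 0.72, C1qb 0.63 and Ctss 0.43. Itgam, which encodes the CD11b chain, had 0.05 and Adgre1, which encodes F4/80, had 0.27, with adjusted p of 0.969 and 0.812. These markers that did not pass were chosen after their values were seen. The part of myeloid RNA in the Il1b difference was not tested.

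**Figure D3:**
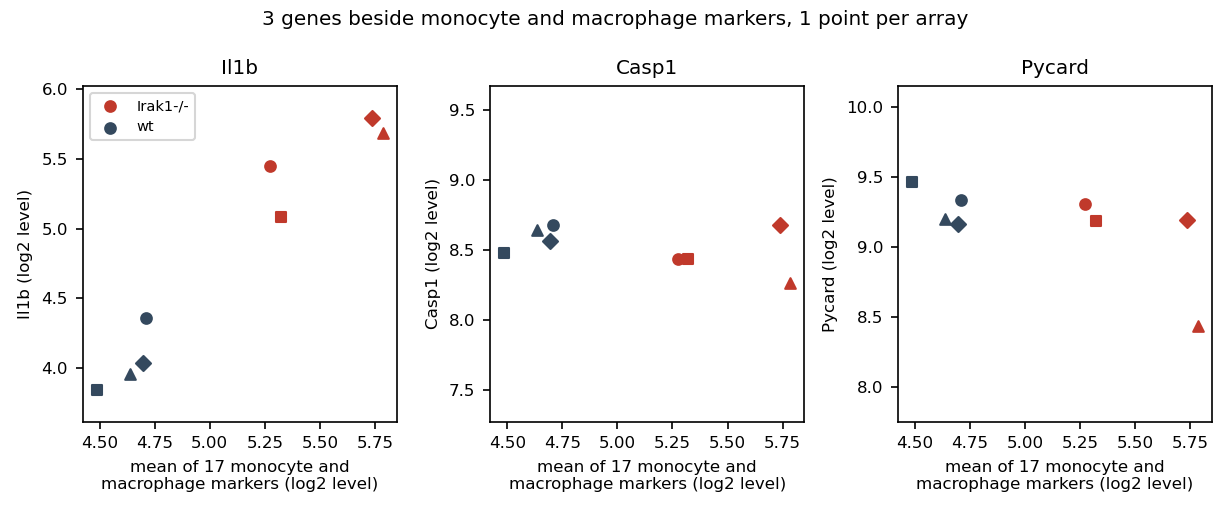
Log2 level of Il1b, Casp1 and Pycard on each array against the mean log2 level of 17 monocyte and macrophage markers on the same array, red for Irak1-/- and dark blue for wt, with the symbol giving the pair as in the plot of levels. The marker mean runs from 5.27 to 5.78 in Irak1-/- and from 4.49 to 4.71 in wt arrays. The marker mean and Il1b each separate the genotypes without overlap, so their joint split restates those group differences. Casp1 and Pycard overlap between the genotypes.

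Other cells were looked for in the same way. Among neutrophil markers 5 of 11 were tested and 0 passed. S100a8 and S100a9, which encode the subunits of calprotectin, had differences of 2.62 (adjusted p = 0.0635) and 1.05 (adjusted p = 0.416), while Cxcr2 had 0.08 and Elane -0.14, and Csf3r, Ly6g, Ngp, Ltf, Camp and Retnlg lay under the filter. The summed level of the 11 markers was 203 to 553 in Irak1-/- and 159 to 223 in wt arrays. S100a8 had the highest mean of the 11 in Irak1-/- arrays (7.33, against 4.70 in wt) and weighs heavily in that sum. Among dendritic cell and antigen presentation markers 7 of 8 were tested and H2-Aa, a chain of MHC class II, rose by 1.74 (adjusted p = 0.00317). H2-Ab1 had 1.77 (adjusted p = 0.0798), H2-Eb1 0.82 and Itgax, the CD11c chain, -0.59. Xcr1 had 0.11, Zbtb46 0.01 and Siglech -0.07, all named after their values were seen, and Flt3 lay under the filter. The median of the 7 was 0.11, and summed levels were 374 to 617 in Irak1-/- and 222 to 281 in wt arrays. H2-Ab1 had the highest mean of these markers in Irak1-/- arrays (7.88, against 6.11 in wt) and weighs heavily in that sum. The part of these cells in the Il1b difference was likewise not tested.

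Among the 7 NK and CD8 T cell markers 0 passed and the median was -0.51, with 4 negative and 3 positive differences. The receptor genes Klre1, Klrd1 and Klrk1 had -0.66, -0.55 and -0.51, and the co-receptor gene Cd8a had -0.55 (adjusted p between 0.401 and 0.612), while Cd8b1, which encodes the partner chain of CD8 alpha, had 0.31, Ncr1 0.05 and Klrb1c 0.04, these 3 named after their values were seen. Klre1 had -0.38 without pair 2 and Cd8a -0.30 without pair 4. The summed level of the 7 markers was 759 to 963.0 in Irak1-/- and 1132 to 1325 in wt arrays. Klrd1 alone, with means of 9.34 in Irak1-/- and 9.90 in wt arrays, made up most of that sum. Its levels were lower in Irak1-/- arrays without overlap, as were those of 1.7% of all genes with a probe set. Of 3 tested B cell markers 0 passed, with Cd79b at -0.27, Pax5 at 0.08 and Cd79a at -0.012, and summed levels of 73.3 to 88.4 in Irak1-/- and 68.9 to 102 in wt arrays. Of 4 tested epithelial and stromal markers 0 passed, with Pecam1 at 0.08, Col1a2 at -0.08, Col1a1 at -0.12 and Krt8 at -0.01, and summed levels of 172 to 224 in Irak1-/- and 184 to 207 in wt arrays. The sorted cell type itself was borne out by its markers, as the 9 tested T cell genes averaged 9.89 to 10.20 in Irak1-/- and 10.01 to 10.19 in wt arrays, with Cd6 at 0.19, Cd4 at -0.12, Thy1 at -0.06 and Cd28 at 0.06 between genotypes.

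The receptors that receive these cytokines did not pass. Of 8 tested IL-1 family receptors and decoys, 0 passed and 4 had positive differences, with a median of -0.0022. Il1r1, the signalling receptor for IL-1, read 7.54, 8.01, 7.60 and 7.82 in Irak1-/- replicates 1 to 4, against 6.87, 7.71, 7.33 and 7.05 in wt replicates 1 to 4. It was higher in 4 of 4 pairs, by a mean of 0.50 (adjusted p = 0.404), with overlap between the groups. Il1r2, the decoy receptor that binds IL-1 without signalling, was also higher in 4 of 4 pairs, by 0.41 (adjusted p = 0.450). The share higher in 4 of 4 pairs over all genes with a probe set was 5.5%. Il18rap, the accessory chain of the IL-18 receptor, had -0.19 and Il18bp, the soluble protein that neutralises IL-18, had -0.03. Il1f10 (0.0029) was the sole other IL-1 family ligand of 6 above the filter, and Il33, Il1f5, Il1f6, Il1f8 and Il1f9 were below it.

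Other inflammasome and related genes did not pass either. Of 13 genes of other sensors and related proteins 6 were tested, with a median of 0.06. Nlrx1 had 0.21, Nlrp1b 0.29, Nlrc3 -0.16, Naip5 -0.17, Aim2 0.11 and Naip2 0.0058. Of these 6, Nlrx1 alone was higher in 4 of 4 pairs. Of 14 regulators, 0 passed and 9 had negative differences, with a median of -0.08. Gbp5, an interferon-induced GTPase that promotes NLRP3 inflammasome assembly, was higher in 4 of 4 pairs, by 0.48 (adjusted p = 0.449). Over all genes with a probe set, 5.5% were higher in 4 of 4 pairs. Tnfaip3, the A20 inhibitor of NF-kappaB, had -0.29, Trim30a -0.32 and Pstpip1, a partner of the sensor pyrin, -0.15 (adjusted p between 0.675 and 0.889). Tnfaip3, Pstpip1 and Nek7 (-0.07) were lower in 4 of 4 pairs, as were 7.93% of all genes with a probe set. Trim30a was higher in 1 of 4. Of 3 tested genes of pyroptosis and other caspases, Casp9 had -0.17, Casp6 0.12 and Ninj1, which ruptures the membrane at the end of lytic death, -0.04.

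Genes of the relay below the IL-1 receptor did not pass. Of 11 tested genes 0 passed, the median was -0.03 and the range -0.23 to 0.09. Tollip, which binds and restrains IRAK1, had -0.21, the TAK1 partners Tab3 and Tab2 had -0.23 and -0.15, and the kinase Irak2 had 0.09 (adjusted p between 0.828 and 0.945). Without pair 3 the differences were -0.11 for Tollip, -0.050 for Tab3 and -0.063 for Tab2.

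**Figure D4:**
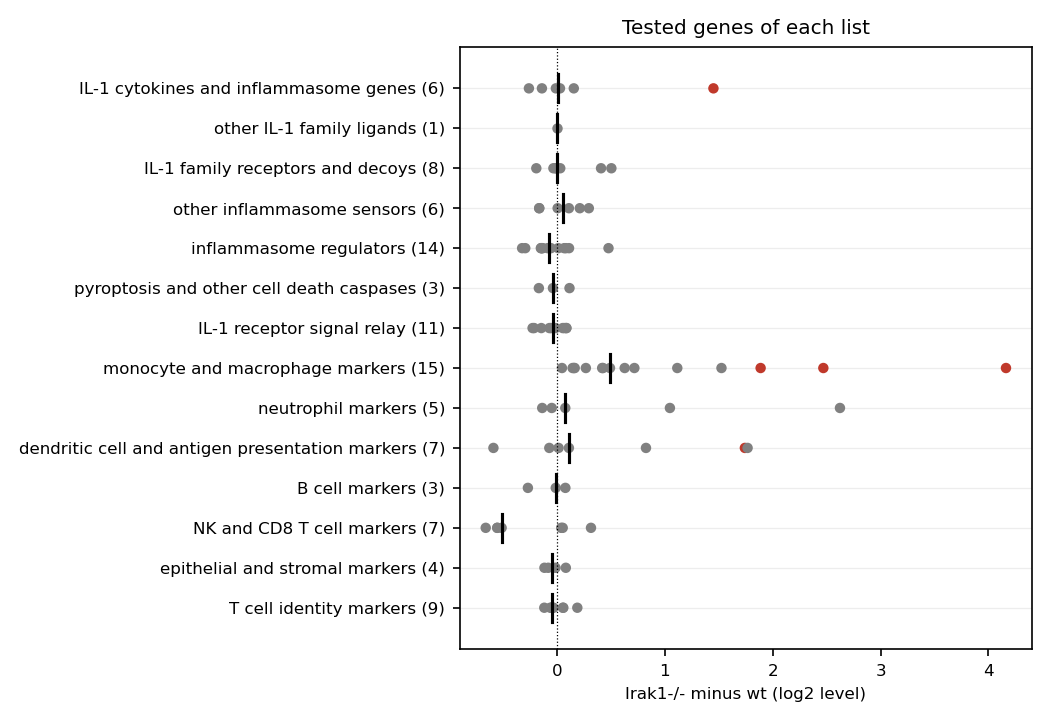
Difference in log2 level, Irak1-/- minus wt, of each tested gene in each list, with the number tested in parentheses, red where the adjusted p was under 0.05 and a black bar at the median of the list. The red points are Il1b in the top row and, among the markers, Lyz2, Tyrobp, Fcer1g and H2-Aa. The 6 rows of pathway genes under the top row hold no red point.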

How the data were processed

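Expression was measured on 8 arrays. The authors deposited log2 levels per probe set, which is all that the deposited table holds. Per the labels' protocols, RNA was extracted with TRIzol and biotin labelled by the standard Affymetrix protocol. How background was corrected and arrays were normalized is not stated there. Array medians lay between 4.25 and 4.31. Arrays carry no counts, so their number limits the precision.

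Of 41345 probe sets, 23521 carried 1 symbol, 1814 several and 16010 none here. Symbols were updated by gene identifier with RefSeq's GRCm38.p6 table for 23328. The probe set with the highest mean was kept for each of 22180 genes, and genes under the 40th percentile of mean level were left out, which left 13308. The fit used limma 3.58.1 (lmFit, eBayes; R 4.3.3) with batch as a block, since the labels pair arrays by batch. Deviations from group means correlated at 0.18, 0.14, 0.20 and 0.08 within pairs 1 to 4, and at -0.22 to 0.23 between arrays of different pairs, so these values alone do not set the pairs apart. Tests were two-sided and adjusted by Benjamini-Hochberg over all genes tested. Nothing says that replicates are separate beyond their separate pooled recipients, so p-values measure the spread between these samples.

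Members and lists were chosen with earlier results of these data known. Genes named are the 9 members, up to 4 per list with the smallest p, and for members called or spanning over 1 on the log2 scale the 5 genes with the highest Pearson correlation. Irak1, Itgam, Adgre1, Csf1r, Mpeg1, Cd8b1, Ncr1, Klrb1c, Zbtb46, Xcr1, Siglech, Aim2, Naip2, Nek7 and genes under the filter are named outside this rule. The fit was tested on simulated data, where it recovered 74.6% of log2 changes of 1 and 97% of changes of 2. Smaller changes were not simulated, so a gene that did not pass may still differ. Alternatives covered the pairing, scaling, filter, probe sets, variance model and left-out arrays. Promoters were scanned in Python 3.11.15.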

Additional observations from a re-analysis of the deposited data

Results flagged for a closer look

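Pycard in Irak1-/- replicate 3 read 8.44, while the other 3 Irak1-/- arrays lay between 9.18 and 9.31. The gap to the nearest of them was 0.857 of the range of the group, above Dixon's 95% critical value for 4 samples. It was the 1 such array in 18 groups looked at (9 genes in both genotypes), and chance gives about 1 in 20. The same array stood apart across genes, with correlations of 0.957 to 0.970 with the others. It had the lowest mean of the T cell markers (9.89) and the highest of the monocyte and macrophage markers (5.78) of all arrays. Whether this bears on its Pycard level was not tested.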

How the results depend on the processing

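Il1b kept its direction in every alternative that tested it, with differences from 1.35 to 1.57 when pairs were left out and adjusted p from 0.0134 to 0.0519. Its call was lost without pair 2 and without pair 4. With the 60th percentile filter 0 members were called, because Il1b lay under that filter. In a fit with no replicate block its adjusted p was 0.0104, and without Irak1-/- replicate 3 and with no replicate block it was 0.0292 (difference 1.39). The block changed no call among the 9 members. Genes called higher in Irak1-/- numbered 9, and 14 with a random block or with median centring, and 6 to 16 with each pair left out (16 without replicate 1, 6 without replicate 2). Among the markers that missed the threshold, Cybb passed with no replicate block (adjusted p = 0.0173), S100a8 with median centring (adjusted p = 0.0461) and H2-Ab1 with a random block (adjusted p = 0.0367), each by limma. Genes called lower numbered 1, and 2 with a random block, median centring or the 60th percentile filter, and 3 with the trend and robust settings. Members called ranged from 0 to 1 with pairs left out.

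Differences near 0 changed sign without passing anywhere. Il1f10 had -0.0089 with quantile normalization, -0.0059 with median centring and -0.033 without Irak1-/- replicate 3, where Il18bp had 0.052 and Cd79a 0.056. With each pair left out, ranges crossed 0 for Casp4 (-0.012 to 0.10), Gsdmd (-0.074 to 0.048), Il1f10 (-0.067 to 0.062), Il18bp (-0.10 to 0.10), Naip5 (-0.30 to 0.035), Ninj1 (-0.11 to 0.015), Cd79a (-0.21 to 0.086), Pax5 (-0.0204 to 0.24), Col1a1 (-0.27 to 0.12), Col1a2 (-0.15 to 0.056), Krt8 (-0.10 to 0.032), Cd6 (-0.0702 to 0.39), Cd4 (-0.21 to 0.016) and the untested Il1a (-0.20 to 0.05). The cause was not tested. The lack of a background measure limits what low levels can show.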
